A study of Mus musculus with 12 samples.

Results

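Polycomb genes and the enzymes that act on histone H3 lysine 27 (H3K27) were followed in RNA from mouse bone marrow (BM). The genes are Ezh1, Ezh2, Eed, Suz12, Bmi1, Asxl1, Asxl2, Kdm6a, Kdm6b and Cbx7, taken by their exact symbols, and all 10 were among the 12199 genes of the table. The study asked how leukemia-associated alleles, in pairs or all together, change the transcriptome of BM cells of C57BL/6 mice. WT mice were compared with DF mice, which carry Dnmt3a flox/+ with MxCre and Flt3 ITD/+, with TF mice, which are Tet2+/- with Flt3 ITD/+, and with TFD mice, which carry all of these alleles. Dnmt3a and Tet2 encode enzymes that add and oxidize methyl groups on DNA, and Flt3 ITD encodes a receptor tyrosine kinase with an internal tandem duplication. Flt3 ITD/+ is thus common to the mutant genotypes, and no group carried it alone. What the groups share, WT among them, is poly(I:C), which switches on MxCre. It was started when the animals were 8 to 10 weeks old, with an interval of 8 to 9 weeks before BM was collected. MxCre is driven by an interferon-inducible promoter and also recombines outside blood cells. The RNA came from unsorted BM cells after globin mRNA had been depleted, with 3 WT, 3 DF, 3 TF and 2 TFD libraries. No label says that 2 libraries shared an animal, and none states that they did not, so p values measure the spread between libraries.

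Polycomb repressive complex 2 (PRC2) methylates H3K27 through Ezh1 or Ezh2, which work only together with Eed and Suz12. Polycomb repressive complex 1 (PRC1) compacts chromatin and ubiquitinates histone H2A. Bmi1 is one of its core subunits, and Cbx7 reads methylated H3K27. Asxl1 and Asxl2 are cofactors of the H2A deubiquitinase Bap1, and Kdm6a and Kdm6b remove methyl groups from H3K27. In BM these proteins are known for their roles in stem cell self-renewal, B lymphoid development and myeloid leukemia.

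The promoters of 9 of the 10 genes were matched by symbol in a RefSeq table on GRCm38.p6, the build also called mm10, and Kdm6b was the gene without an entry. Each window ran from 250 bases before the transcript start to 50 bases after it. It was searched on both strands for E2F motifs (TTTCCCGC or TTTGGCGC), CCAAT, the E-box CACGTG and the ETS motif CCGGAAG, none of which contains another. The 250 bases before the start are printed for the methyltransferase genes Ezh1 and Ezh2, of which only Ezh2 was called against WT (in DF and TF). They are also printed for Suz12 and Bmi1, and for Cbx7, the gene with the largest change in DF. Capitals mark the motifs.
Ezh1, chr11:101226464-101226713, minus strand: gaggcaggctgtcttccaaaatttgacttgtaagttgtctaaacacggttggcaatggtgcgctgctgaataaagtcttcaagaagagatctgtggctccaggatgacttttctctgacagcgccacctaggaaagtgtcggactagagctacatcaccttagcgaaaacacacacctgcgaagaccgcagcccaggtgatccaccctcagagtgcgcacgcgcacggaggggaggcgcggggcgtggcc
Ezh2, chr6:47595031-47595280, minus strand: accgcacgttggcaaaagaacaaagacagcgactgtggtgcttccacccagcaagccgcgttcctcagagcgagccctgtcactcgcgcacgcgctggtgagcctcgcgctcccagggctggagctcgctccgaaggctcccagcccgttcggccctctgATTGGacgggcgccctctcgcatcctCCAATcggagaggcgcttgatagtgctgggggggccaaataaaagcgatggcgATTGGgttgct
Suz12, chr11:79992856-79993105, plus strand: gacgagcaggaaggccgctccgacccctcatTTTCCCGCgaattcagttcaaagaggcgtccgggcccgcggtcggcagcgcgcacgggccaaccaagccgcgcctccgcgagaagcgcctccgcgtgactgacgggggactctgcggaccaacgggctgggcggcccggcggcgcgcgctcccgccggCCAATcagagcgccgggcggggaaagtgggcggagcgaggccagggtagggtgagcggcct
Bmi1, chr2:18676768-18677017, plus strand: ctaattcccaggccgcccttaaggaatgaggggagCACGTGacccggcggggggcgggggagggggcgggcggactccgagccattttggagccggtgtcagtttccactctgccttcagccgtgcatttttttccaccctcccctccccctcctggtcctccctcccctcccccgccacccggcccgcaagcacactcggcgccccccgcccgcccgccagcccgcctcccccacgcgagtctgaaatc
Cbx7, chr15:79932647-79932896, minus strand: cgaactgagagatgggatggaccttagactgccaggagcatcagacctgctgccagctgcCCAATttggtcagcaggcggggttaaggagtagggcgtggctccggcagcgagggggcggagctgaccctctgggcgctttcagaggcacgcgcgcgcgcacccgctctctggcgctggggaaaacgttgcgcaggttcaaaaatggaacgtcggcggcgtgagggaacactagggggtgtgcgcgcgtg
An E2F motif was found in 1.56% of 32851 promoters and in 2 of the 9 genes here. In Suz12 it lay 219 to 212 bases before the start, and in Ezh2 it occupied bases 4 to 11 after the start, beyond the printed stretch. CCAAT was found in 37.4% of promoters, including Ezh2, Suz12, Eed and Cbx7, and Ezh2 held 3 copies. The E-box was found in 7.15% of promoters and in Bmi1, Kdm6a and Asxl2. The ETS motif was found in 8.86% and in Asxl1 and Asxl2. The Ezh1 window held none of these letters. All 9 windows held at least the median CpG count of 7, from 13 in Asxl1 and 31 in Ezh2 to 33 in Cbx7 and 41 in Suz12. These matches describe the letters of a window and were not tied to the changes below.

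Library totals over the table ranged from 8274153 to 15900904 reads, and the lowest count of any of these genes in any library was 76. The targeted genes gave no clear check of the genotypes in gene totals, which do not resolve the exons an allele lacks. Dnmt3a stood at 3.82 to 4.67 RPKM (counts scaled to gene length and library total) in DF, 3.10 to 5.81 in WT and 5.80 to 8.67 in TF. Its log2 fold change in DF was −0.15 against WT (adjusted p = 0.578, edgeR quasi-likelihood test with Benjamini-Hochberg adjustment) and −0.73 against TF (adjusted p = 0.0551), and neither was called. Tet2 was not called in TF against WT (0.20, adjusted p = 0.330). In TFD, neither Dnmt3a (5.47 and 5.89 RPKM, log2 fold change 0.29, adjusted p = 0.382) nor Tet2 (17.7 and 22.8 RPKM against 16.1 to 18.4 in WT, 0.25, adjusted p = 0.318) was called. WT replicate 3, TF replicate 3 and TFD replicate 2 stood apart, with 33978, 30976 and 42152 reads of Xist, the RNA that coats the inactive X chromosome. DF replicate 1 held 538, and the other 7 libraries held between 18 and 32. No DF library was of the first kind, so Xist and genotype are unbalanced between DF and the other groups.

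The RNA of cell type markers also differed between the BM samples. Summed over 10 B cell markers, the level was 589 to 723 CPM (counts scaled to a common library total) in WT, 17.1 to 31.0 in DF, 26.3 to 99.1 in TF and 21.6 to 23.1 in TFD, and all 10 were lower in each mutant genotype. Among these markers Rag1 was at 0 in 3 libraries, Pax5 in 2 and Vpreb1 in 1. Summed over 8 erythroid markers it was 1344 to 1767 CPM in WT, 290 to 423 in DF, 537 to 1422 in TF and 501 to 633 in TFD, with 8, 6 and 6 of them called lower in DF, TF and TFD. The 7 monocyte markers summed to 1839 to 1970 CPM in WT, 5690 to 6477 in DF, 5260 to 6631 in TF and 5499 to 5611 in TFD, with 7, 7 and 6 of them called higher. A list of 12 cell cycle genes summed to 5951 to 6336 CPM in WT, 4619 to 5546 in DF, 5196 to 5361 in TF and 4619 to 4991 in TFD, with 3, 2 and 6 of them called lower. Although the source is labelled as mononuclear cells, 8 late neutrophil markers summed to 18740 to 28190 CPM in WT, 20360 to 30010 in DF, 12800 to 17540 in TF and 11540 to 19360 in TFD, with 0, 3 and 1 of them called lower in DF, TF and TFD. The 7 measured T cell markers summed to 48.8 to 56.1 CPM in WT, 16.7 to 28.4 in DF, 24.4 to 62.7 in TF and 16.3 to 22.0 in TFD, with 5, 1 and 4 of them called lower. The 5 early granulocyte markers summed to 2981 to 3138 CPM in WT, 4677 to 6490 in DF, 2753 to 4494 in TF and 3944 to 5736 in TFD, with 5, 1 and 2 of them called higher. The 6 measured stem and progenitor markers summed to 135 to 145 CPM in WT, 247 to 267 in DF, 158 to 267 in TF and 221 to 234 in TFD. Of these, 1 was called higher and 1 lower in DF and in TF, and 1 higher in TFD. Their median log2 fold changes were 0.11, −0.32 and −0.07, so the sum does not describe the list. The 5 megakaryocyte markers summed to 43.4 to 62.5, 34.5 to 43.3, 25.0 to 46.4 and 33.8 to 116 CPM, with 1 called lower in DF, 0 called in TF and 1 called higher in TFD. Within TF, replicate 3 stood apart, with 99.1, 1422 and 62.7 CPM of B cell, erythroid and T cell markers. The other TF libraries reached at most 30.35, 645.5 and 27.8 CPM. Replicate 3 also held the lowest early granulocyte sum of TF (2753 CPM). In bulk RNA, fewer cells of a type and less RNA per cell cannot be told apart, and the part of these shifts in the results that follow was not tested.

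Compared per length, as RPKM, the genes spanned a wide range in BM. Suz12 and Ezh2 were the most abundant, with means of 54.6 and 54.1 RPKM over the 11 libraries, and their ranges of 43.3 to 72.2 and 43.3 to 72.1 did not separate them. Next came Eed with 31.6, Kdm6a with 25.3 and Asxl1 with 23.6 RPKM, whose ranges overlapped. Asxl2 at 14.6, Kdm6b at 13.6, Ezh1 at 10.9 and Bmi1 at 9.62 formed a lower tier in which each range overlapped the next. Cbx7 was lowest at 3.87 RPKM, and its highest library (5.79) lay below the lowest of Bmi1 (7.99). Cbx7 also varied most among them, with a 2.86-fold range over libraries, whereas Asxl2 and Ezh1 varied by 1.36-fold and 1.33-fold.

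**Figure D1:**
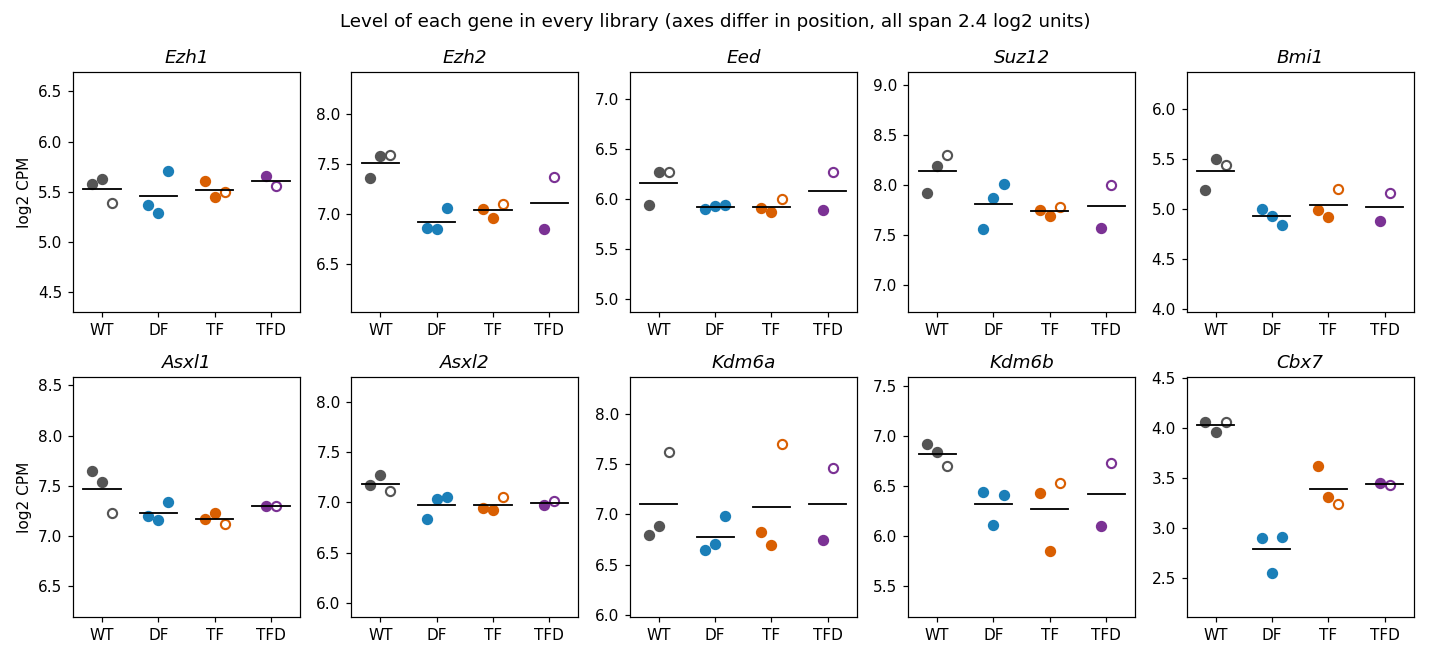
Level of each of the 10 genes as log2 CPM (vertical axis) in every library of WT, DF, TF and TFD (horizontal axis). Each point is 1 library, open points are the 3 libraries with over 10000 Xist reads, and horizontal lines are group means. Cbx7 and Ezh2 show WT above DF and TF without overlap, Ezh1 shows no separation, and Kdm6a is high in the open points.

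Where a call was made among the 10 genes against WT, the gene was lower in mutant BM, and none of the 10 was called higher in any comparison. Of all 12175 tested genes, 21% were called higher in DF, 19% in TF and 14.7% in TFD. In DF, 3 of the 10 genes fell at an adjusted p under 0.05 (Ezh2, Bmi1 and Cbx7), next to 16.6% of all tested genes called lower and 37.6% called in either direction. In TF, 6 fell (Ezh2, Suz12, Bmi1, Asxl1, Kdm6b and Cbx7), next to 15.6% of all genes called lower and 34.6% in either direction. In TFD, Cbx7 alone fell, next to 11.6% of all genes called lower and 26.3% in either direction. These counts depend on the fit. In DF the count was 7 with DESeq2 (Ezh2, Suz12, Bmi1, Asxl1, Asxl2, Kdm6b and Cbx7) and 8 when scaled by library totals, and 3 to 5 with single libraries left out. In TF it was 7 with DESeq2, 4 with limma voom and 3 with the replicate number of the labels as a block, and 1 to 6 with single libraries left out. In TFD it was 3 with a term for Xist, and 0 to 1 with single libraries left out. Over the 10 genes the median log2 fold change in DF, TF and TFD was −0.34, −0.33 and −0.27, where all tested genes had medians of 0.05, 0.02 and 0.01. The comparisons share the same 3 WT libraries and are therefore not independent of each other.

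**Figure D2:**
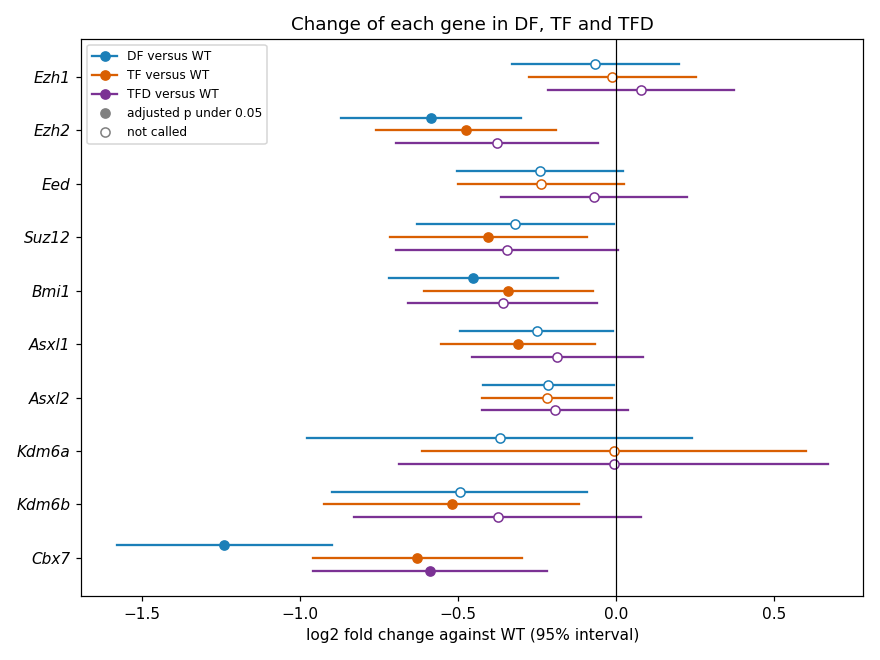
Log2 fold change against WT (horizontal axis) for each gene, with 95% intervals, in DF, TF and TFD. Filled points have an adjusted p under 0.05. Cbx7 in DF lies farthest from 0 at −1.24, and the intervals of Ezh1 and Kdm6a include 0 in each genotype.

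Ezh2, the main H3K27 methyltransferase of dividing cells, fell in DF and TF. It stood at 61.4, 71.6 and 72.1 RPKM in the WT libraries and at 43.4, 43.3 and 50.03 in DF. In TF it stood at 49.7, 46.7 and 51.2 RPKM, and in TFD at 43.3 and 62.1. Every DF and TF library lay below every WT library, and the second TFD library lay within the WT range. By edgeR's quasi-likelihood test with Benjamini-Hochberg adjustment, the log2 fold changes of Ezh2 in DF and TF were −0.59 and −0.48 (SE 0.13 for both), with adjusted p values of 0.00413 and 0.0143. In TFD the log2 fold change was −0.38 (SE 0.15) with an adjusted p of 0.0775, and the TFD libraries disagreed, since it was −0.66 (adjusted p = 0.0114) without TFD replicate 2 and −0.14 (adjusted p = 0.548) without TFD replicate 1. Ezh2 was called lower in TFD with DESeq2 (adjusted p = 0.0481) and with a term for Xist (−0.43, adjusted p = 0.0273). Among the 8 libraries with under 10000 Xist reads, where replicate 1 is the only TFD library, the value was −0.62. The call in DF held whichever library was left out, and that in TF was lost without WT replicate 2 (adjusted p = 0.0511) or TF replicate 2 (adjusted p = 0.0530).

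Ezh1, the methyltransferase that prevails in resting cells, was not called in any genotype. Its level was 11.3, 11.7 and 9.91 RPKM in WT and 9.83, 9.29 and 12.4 in DF. In TF it was 11.5, 10.3 and 10.8 RPKM, and in TFD 12.0 and 11.1. These ranges overlap throughout. The log2 fold changes were −0.07 in DF (95% interval −0.33 to 0.20), −0.01 in TF (−0.28 to 0.25) and 0.08 in TFD (−0.21 to 0.37), and their sign depended on single libraries in DF and TF.

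The balance between both methyltransferase genes therefore differed between libraries. Ezh1 RPKM amounted to 18.4%, 16.3% and 13.8% of Ezh2 RPKM in WT and to 22.6%, 21.5% and 24.7% in DF. In TF the share was 23.3%, 22.1% and 21.0%, and in TFD 27.8% and 17.9%. All DF and TF libraries lay above WT, and 1 TFD library overlapped with it. On the log2 scale the mean ratio exceeded that of WT by 0.51 in DF, 0.46 in TF and 0.48 in TFD, without a test. With single libraries left out it ranged from 0.40 to 0.61 in DF, from 0.35 to 0.56 in TF and from 0.16 to 0.79 in TFD.

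**Figure D3:**
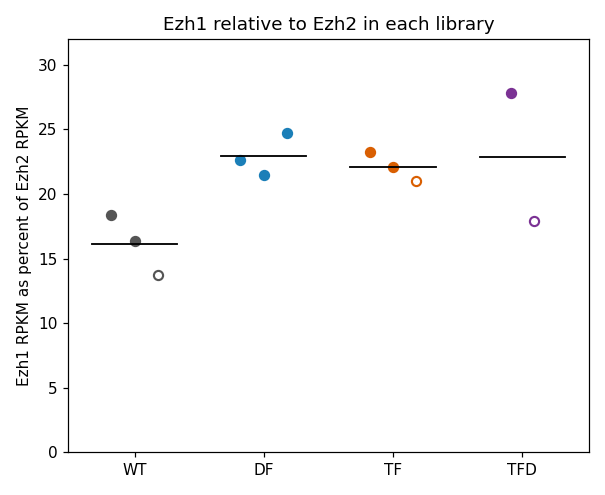
Ezh1 RPKM as a percentage of Ezh2 RPKM (vertical axis) in every library by genotype, with group means as lines and the libraries with over 10000 Xist reads as open points. WT libraries sit at 13.8% to 18.4%, below all DF and TF libraries, and the TFD libraries are spread from 17.9% to 27.8%.

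Suz12 and Eed, the scaffold and the H3K27me3-binding subunit of PRC2, moved less. Suz12 stood at 55.6, 66.8 and 72.2 RPKM in WT, 43.3, 53.8 and 59.1 in DF, 49.4, 47.5 and 50.2 in TF, and 43.5 and 58.9 in TFD. Only the TF libraries lay entirely below WT. Suz12 fell in TF (log2 fold change −0.40, SE 0.14, adjusted p = 0.0454 by edgeR), a call lost among the 8 libraries with under 10000 Xist reads (adjusted p = 0.105) and in 6 of the 11 fits that left out 1 library each (without WT replicate 2 or 3, DF replicate 2, or any TF replicate, with adjusted p up to 0.136). It was not called in DF or TFD, where the log2 fold changes were −0.32 and −0.34 (SE 0.14 and 0.16) and the adjusted p values 0.0991 and 0.139. In DF it was called without WT replicate 1 (−0.46, adjusted p = 0.0352) or DF replicate 3 (−0.45, adjusted p = 0.0420). In TFD its log2 fold change was −0.57 without TFD replicate 2 and −0.14 without TFD replicate 1. Eed ranged from 29.7 to 37.3 RPKM in WT, 29.0 to 29.7 in DF, 28.3 to 31.0 in TF and 28.8 to 37.5 in TFD. The first WT library overlapped with DF and TF, and Eed was not called, with log2 fold changes of −0.24 in DF, −0.24 in TF and −0.07 in TFD and adjusted p values of 0.134, 0.146 and 0.745. Without WT replicate 1, Eed was called in DF (−0.38, adjusted p = 0.0294) and TF (−0.35, adjusted p = 0.0446), and in TFD it changed sign without TFD replicate 1 (0.11).

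The remaining PRC2 genes came from a list of 10 accessory and alternative subunits, of which 8 were tested. In each mutant genotype 1 of the 8 rose and 1 fell. Of all genes, 21%, 19% and 14.7% were called higher and 16.6%, 15.6% and 11.6% lower in DF, TF and TFD. The median log2 fold change of the 8 was −0.08 in DF, −0.07 in TF and −0.07 in TFD. Phf19, a Polycomb-like subunit that recruits PRC2, rose by 0.63, 0.52 and 0.88 on the log2 scale in DF, TF and TFD (edgeR adjusted p = 0.00417, 0.0125 and 0.00121). Lcor, whose locus also encodes a PRC2-associated protein, fell by 0.49, 0.62 and 0.46 in DF, TF and TFD (edgeR adjusted p = 0.0149, 0.00463 and 0.0454).

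Cbx7 showed the largest change of the 10 genes in DF under every setting tried, and in TF and TFD in the fit of all libraries. In TF, Kdm6b exceeded Cbx7 among the 8 libraries with under 10000 Xist reads (−0.71 against −0.55 in log2) and without TF replicate 3 (−0.65 against −0.56). In TFD, the fit without replicate 2 and that of those 8 libraries each leave replicate 1 as the only TFD library. In the former, Ezh2 (−0.66) and Kdm6b (−0.71) exceeded Cbx7 (−0.57), and Suz12 (−0.57) had the same rounded value. In the latter, Ezh2 (−0.62) and Kdm6b (−0.78) exceeded Cbx7 (−0.57). Its raw counts were 204, 126 and 186 in WT, 94, 91 and 76 in DF, 152, 121 and 104 in TF, and 175 and 121 in TFD. Scaled by depth and length, these are 5.79, 5.39 and 5.75 RPKM in WT and 2.58, 2.02 and 2.60 in DF. TF libraries stood at 4.25, 3.42 and 3.28 RPKM and TFD libraries at 3.78 and 3.73. The WT libraries were above all others, the DF libraries below all others, and TF overlapped with TFD.

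By edgeR's quasi-likelihood test Cbx7 fell by 57.7% in DF (log2 fold change −1.24, SE 0.16, 95% interval −1.58 to −0.90, adjusted p = 8.94e-05). It also fell in TF and TFD, with log2 fold changes of −0.63 and −0.59 (SE 0.15 and 0.17) and adjusted p values of 0.00723 and 0.0231. The calls in DF and TF held without any single library, with adjusted p up to 0.000895 and 0.0310. That in TFD was lost without WT replicate 1 (0.0550), WT replicate 3 (0.0602), TFD replicate 1 (0.0878) or TFD replicate 2 (0.0888), while the log2 fold change stayed between −0.62 and −0.57. Cbx7 shares 100 exonic bases (3.46% of its length) with Apobec3 on the opposite strand in the annotation (GENCODE M21). Apobec3 was itself lower, by −0.64, −0.43 and −0.67 in DF, TF and TFD, and the strand setting of the counting is not given in the sources used here, so the share of such reads was not tested.

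Among the genotypes, DF was set against TF. They differ in the DNA methylation gene that is altered, and MxCre is given for DF but not for TF. TF also holds a library with over 10000 Xist reads and DF does not. These differences cannot be told apart here. Cbx7 was the 1 gene of the 10 called in this comparison, lower in DF with a log2 fold change of −0.61 (SE 0.16, 95% interval −0.95 to −0.27, adjusted p = 0.0414 by edgeR), next to 4.27% of all tested genes called lower, 1.67% called higher and 5.94% in either direction. Those 723 calls became 385, 169 and 252 without DF replicate 1, 2 or 3 and 341 without TF replicate 3, and lay between 531 and 933 without any other library. The groups did not overlap, as in 12.1% of all genes in that direction. The call was lost in 7 of 11 fits without 1 library, namely WT replicate 2 (adjusted p = 0.0581), WT replicate 3 (0.0517), DF replicates 1 (0.0670), 2 (0.184) and 3 (0.0740) and TF replicates 1 (0.161) and 3 (0.0564), and the log2 fold change ranged from −0.69 to −0.49. It was also lost with voom (0.0526), a term for Xist (0.0539), the replicate block (0.0526), only the DF and TF libraries in the fit (0.0808) and the libraries with under 10000 Xist reads (0.0519). Of the 8 erythroid markers, 7 were also lower in DF than in TF, as was 1 of 7 T cell markers, while 2 of 5 early granulocyte, 1 of 8 late neutrophil and 1 of 6 stem and progenitor markers were higher. Their part in the difference was not tested. Against TFD, the log2 fold change of Cbx7 in DF was −0.65 (SE 0.17, unadjusted p = 0.00248, adjusted p = 0.147). The DF libraries lay below the TFD libraries, as for 14.1% of all genes. In that comparison edgeR's quasi-likelihood test called 0% of all genes (1727 genes had an unadjusted p under 0.05), voom called 0, DESeq2 258 and edgeR's likelihood ratio test 311. The quasi-likelihood test called 384 genes without TFD replicate 1, 229 without TF replicate 3, and 0 to 13 without any other library. TF and TFD were close for Cbx7 (−0.04, 95% interval −0.41 to 0.33), and none of the 10 genes was called there, next to 0.0164% of all genes.

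Bmi1, the RING finger partner in canonical PRC1, stood at 10.2, 12.6 and 12.1 RPKM in WT and 8.92, 8.51 and 7.99 in DF. It stood at 8.84, 8.45 and 10.2 in TF and at 8.18 and 9.94 in TFD. DF and TFD lay below WT, and the third TF library reached the lowest WT library. Bmi1 fell in DF (log2 fold change −0.45, SE 0.12, adjusted p = 0.0121 by edgeR) in every fit without 1 library. The call in TF (−0.34, SE 0.12, adjusted p = 0.0478) was lost in 7 of 11 such fits (without WT replicate 2 or 3, any DF replicate, or TF replicate 1 or 2, adjusted p up to 0.157). In TFD the value was −0.36 with an adjusted p of 0.0737, and it was −0.45 (adjusted p = 0.0382) without WT replicate 1 and −0.22 (adjusted p = 0.395) without TFD replicate 1.

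Of the 25 other PRC1 genes, 1 rose and 5 fell in DF, 4 rose and 5 fell in TF, and 1 rose and 2 fell in TFD. Of all genes, 21%, 19% and 14.7% were called higher and 16.6%, 15.6% and 11.6% lower. Cbx8, a paralogue of Cbx7 that occupies the same position in PRC1, rose by 0.61 and 0.73 in DF and TF (edgeR adjusted p = 0.0256 and 0.0110) and had a log2 fold change of 0.59 in TFD that was not called (adjusted p = 0.0551). Rybp, a subunit of variant PRC1 that competes with Cbx proteins, fell by 0.50, 0.66 and 0.71 in DF, TF and TFD (edgeR adjusted p = 0.00657, 0.00138 and 0.00239). Bcorl1, a corepressor in variant PRC1, fell by 0.45, 0.71 and 0.63 (adjusted p = 0.0352, 0.00380 and 0.0169). Kdm2b, which brings variant PRC1 to CpG islands, rose by 0.31 and 0.50 in TF and TFD (adjusted p = 0.0487 and 0.00914), and E2f6, a repressor in the same class of complex, fell in TF by 0.49 (adjusted p = 0.0107).

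Asxl1 and Asxl2 are the Bap1 cofactors. Asxl1 stood at 30.1, 27.9 and 22.4 RPKM in WT and between 21.4 and 24.2 in DF, 20.8 and 22.4 in TF, and 23.5 and 23.6 in TFD. The third WT library reached into the range of the mutants. Asxl1 fell in TF (log2 fold change −0.31, SE 0.11, adjusted p = 0.0477 by edgeR), a call lost in 7 of 11 fits without 1 library (WT replicate 1 or 2, DF replicate 1 or 2, or any TF replicate, adjusted p up to 0.153). In DF the value was −0.25 (adjusted p = 0.0946), which became −0.40 (adjusted p = 0.0121) without WT replicate 3 (−0.43 in TF, adjusted p = 0.00878), and in TFD it was −0.19 (adjusted p = 0.305).

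Asxl2 ranged from 15.4 to 17.1 RPKM in WT, 12.6 to 14.7 in DF, 13.4 to 14.7 in TF and 14.0 to 14.3 in TFD. All mutant libraries were below all WT libraries. The log2 fold changes were −0.21 in DF, −0.22 in TF and −0.19 in TFD, with adjusted p values of 0.0938, 0.0924 and 0.204. Asxl2 was called lower in DF with DESeq2 (adjusted p = 0.0301), RLE factors (0.0493) and library totals (0.0202), and in TF with DESeq2 (0.0494). Of all tested genes, 22.4% lay below WT without overlap in DF, 22.9% in TF and 23.4% in TFD. By the same count, 5 of the 10 genes did so in DF (Ezh2, Bmi1, Asxl2, Kdm6b and Cbx7), 5 in TF (Ezh2, Suz12, Asxl2, Kdm6b and Cbx7) and 3 in TFD (Bmi1, Asxl2 and Cbx7). Asxl1 amounted to 146% to 188% of Asxl2 RPKM in WT, and the log2 ratio in the mutants differed from it by −0.08 to 0.02. Among 8 tested genes of the list of other Bap1 complex subunits, Kdm1b was the 1 gene called, lower by 0.56, 0.65 and 0.64 in DF, TF and TFD (edgeR adjusted p = 0.00163, 0.000776 and 0.00224). Of all genes, 16.6%, 15.6% and 11.6% were called lower and 37.6%, 34.6% and 26.3% in either direction. Kdm1b encodes a demethylase of histone H3 lysine 4 (H3K4).

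Kdm6a, the X-linked H3K27 demethylase, was not called in any genotype, and its spread followed Xist. It stood at 21.0, 22.5 and 37.4 RPKM in WT, 19.0, 19.8 and 23.97 in DF, 21.5, 19.6 and 39.5 in TF, and 20.4 and 33.4 in TFD. The highest library in each of WT, TF and TFD was the one with over 10000 Xist reads, and these 3 lay above all 8 others. In a fit with a term for these libraries, Kdm6a was 1.77-fold higher in them (log2 0.82, SE 0.10, adjusted p = 0.00215 by edgeR), 1 of 8 genes (0.0657%) called for the term. None of the other 9 genes was called for it. Even so, Ezh2, Eed, Suz12, Bmi1 and Kdm6b were higher in these libraries by 0.20 to 0.24 in log2 (unadjusted p from 0.0522 to 0.144 by edgeR). Asxl2 had 0.02, and Ezh1, Asxl1 and Cbx7 had −0.11, −0.16 and −0.07. Kdm6a is known to escape X inactivation. Its Y-linked homologue Uty had 1, 8 and 1 reads in these libraries and 614 to 1481 reads in the others. The labels used here do not give the sex of the animals.

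With all libraries, the log2 fold change of Kdm6a was −0.37 in DF (95% interval −0.98 to 0.24, adjusted p = 0.322), −0.01 in TF and −0.01 in TFD. With the Xist term it was −0.04 in DF, −0.03 in TF and −0.14 in TFD. Among the 8 libraries with under 10000 Xist reads (18 to 538), with replicate 1 the only TFD library, it was −0.09, −0.08 and −0.10. Kdm6a thus lay within 0.14 log2 units of WT in each genotype with either treatment of Xist.

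**Figure D4:**
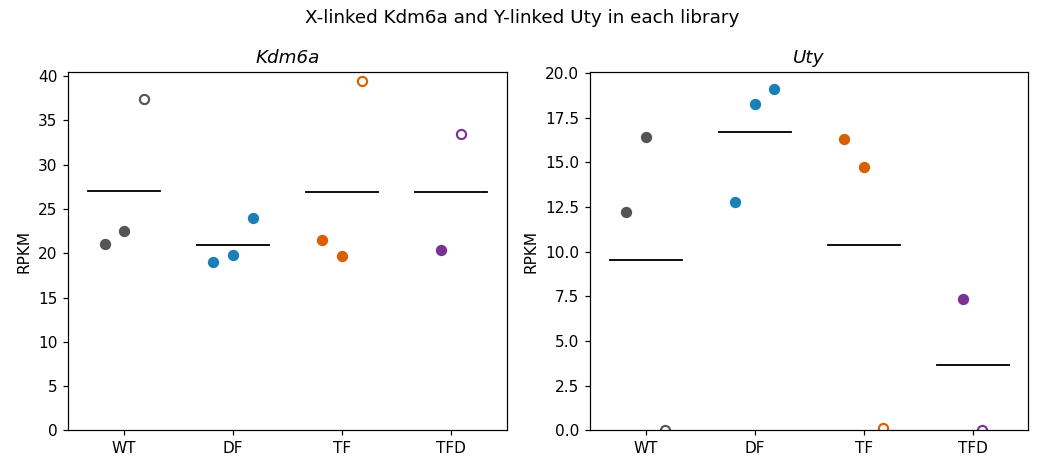
Kdm6a and its Y-linked homologue Uty, as RPKM (vertical axes) in every library by genotype (horizontal axes), with group means as lines. The open points, which mark the 3 libraries with over 10000 Xist reads, are the highest for Kdm6a (33.4 to 39.5 RPKM) and near 0 for Uty.

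Kdm6b, the inducible H3K27 demethylase, stood at 18.2, 17.3 and 15.6 RPKM in WT and 13.1, 10.4 and 12.8 in DF. In TF it stood at 12.99, 8.72 and 14.0 RPKM and in TFD at 10.4 and 16.0. DF and TF lay below WT, and the second TFD library was within its range. In DF, TF and TFD the log2 fold changes were −0.50, −0.52 and −0.38 (SE 0.19, 0.19 and 0.21), of which TF alone was called (edgeR adjusted p = 0.0524, 0.0466 and 0.211). The call in TF was lost in 8 of 11 fits without 1 library (any WT or DF replicate, or TF replicate 1 or 2, adjusted p from 0.0523 to 0.169). The TF value was smallest without TF replicate 2, at −0.34. In TFD it was −0.71 without TFD replicate 2 and −0.09 without TFD replicate 1. Among the 8 libraries with under 10000 Xist reads, where replicate 1 is the only TFD library, it was −0.78. Kdm6b was called in DF among those 8 libraries (−0.59, adjusted p = 0.0122), with only the groups compared (0.00325), DESeq2 (0.0182), RLE factors (0.0383), library totals (0.0219) and the likelihood ratio test (0.0350). In DF a call was gained without TF replicate 2 (0.0243), TF replicate 3 (0.0374), TFD replicate 1 (0.0279) or TFD replicate 2 (0.0226).

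A list of 8 enzymes and cofactors that oppose Polycomb at H3K4 and H3K27 included 5 that fell in DF, 5 that fell in TF and 0 in TFD, with none higher, where 16.6%, 15.6% and 11.6% of all genes were called lower. Kmt2c and Kmt2d, H3K4 methyltransferases found in a complex with Kdm6a, fell by 0.58 and 0.47 in DF (edgeR adjusted p = 0.00832 and 0.0214) and by 0.58 and 0.56 in TF (adjusted p = 0.00906 and 0.00981). Ncoa6 and Paxip1, subunits of the same complex, fell by 0.37 and 0.34 in DF (adjusted p = 0.0380 and 0.0265) and by 0.63 and 0.37 in TF (adjusted p = 0.00270 and 0.0194). Crebbp, an acetyltransferase for H3K27, fell by 0.45 and 0.39 in DF and TF (adjusted p = 0.0116 and 0.0250). In TFD these genes had log2 fold changes between −0.42 and −0.22.

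Of 12 known Polycomb target loci, 6 were tested, with 5 higher and 1 lower in DF, 4 higher and 1 lower in TF, and 4 higher and 0 lower in TFD. Of all genes, 21%, 19% and 14.7% were called higher and 16.6%, 15.6% and 11.6% lower. The study had already reported Hoxa7, Hoxa9, Hoxb3, Hoxb4 and Meis1 as upregulated in mutant BM. The list was written with such results known, so its counts are no independent support. They cover loci that passed the filter on low values. Hoxa7 had a mean log2 CPM of −1.29 in WT, under the limit of 0.5 CPM, and passed through the mutant libraries. It is counted as higher in each mutant genotype, though it entered through the groups where it is high. The homeobox genes Hoxa9 and Hoxb4 were called higher in each mutant genotype, with Hoxa9 higher by 1.03, 1.10 and 1.04 in DF, TF and TFD (edgeR adjusted p = 0.00676, 0.00495 and 0.0139), and Hoxb3 rose in DF and TF by 1.61 and 1.52 (adjusted p = 0.0130 and 0.0197). Pbx3, which encodes a partner of Hox proteins, went the other way and fell by 1.02 and 0.81 in DF and TF (adjusted p = 0.0113 and 0.0354). None of the genes in these wider lists was called between DF and TF.

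**Figure D5:**
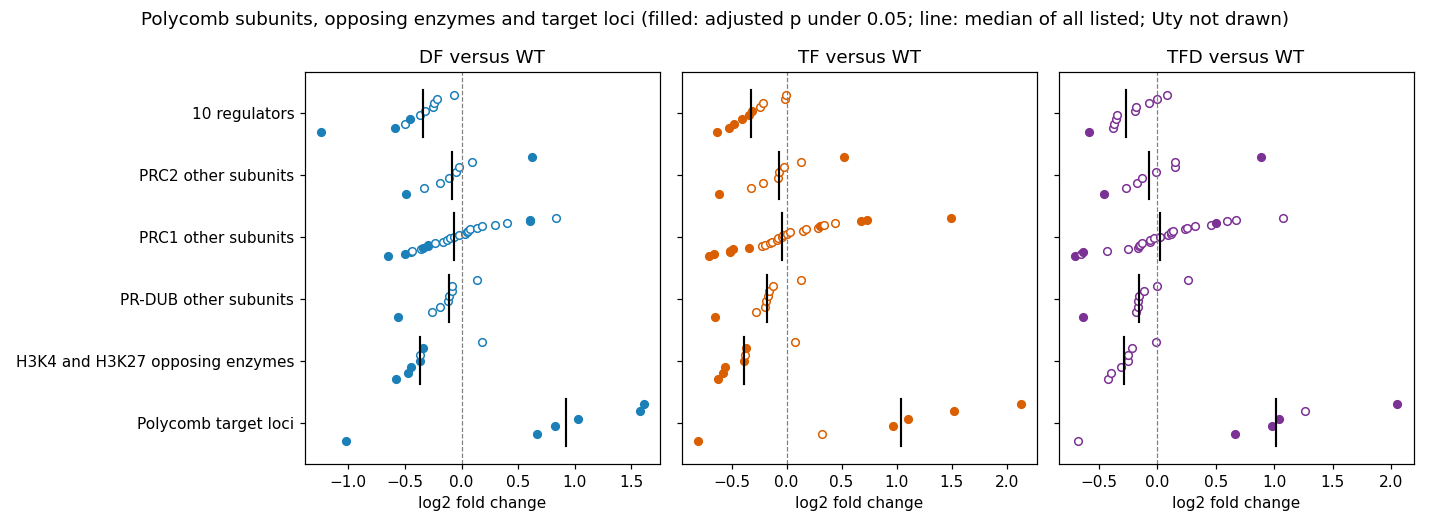
Log2 fold changes against WT (horizontal axes) in DF, TF and TFD for the 10 genes and for the lists of other PRC2, PRC1 and Bap1 complex subunits, opposing enzymes and Polycomb target loci (vertical axis). Each point is a gene, filled where the adjusted p is under 0.05, and lines are list medians, such as −0.34 for the 10 genes in DF. The 10 genes and the opposing enzymes lie mostly left of 0 and the other subunits on both sides of it.

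Across the 11 libraries, the levels of some of the 10 genes tracked each other. Pearson correlations of log2 CPM were 0.90 between Ezh2 and Bmi1, 0.87 between Ezh2 and Suz12 and 0.86 between Ezh2 and Eed, whereas Ezh1 and Ezh2 had 0.17. These are descriptions over libraries that share genotypes, cell composition and Xist status. Among 11183 genes whose log2 CPM averaged 1 or more, those nearest to Ezh2 were Etnk1 (0.98), E2f8 (0.98) and N4bp2 (0.97). Nearest to Bmi1 were Arl5a, Foxo1 and Ints8 (0.99, 0.97 and 0.97), and nearest to Suz12 were Azin1, Naa30 and Wapal (0.99, 0.97 and 0.96). For Kdm6b they were Plagl2, Fam53c and Sik1 (0.98, 0.96 and 0.96) and for Asxl1 Xpo6, Ulk3 and Fbxl22 (0.95, 0.94 and 0.94). Cbx7 had the loosest neighbours of the called genes, with Lrig1, Jakmip1 and Igsf3 at 0.93, 0.92 and 0.92.

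The genes lie apart from each other in mm10, except that Ezh1 (chr11:101191115-101226463), Suz12 (chr11:79993106-80034123) and Kdm6b (chr11:69398518-69413675) are on the same chromosome, as are Bmi1 (chr2:18677018-18686629) and Asxl1 (chr2:153346139-153404007). Ezh2 is at chr6:47530274-47595030, Eed at chr7:89954654-89980976, Asxl2 at chr12:3426857-3506849, Cbx7 at chr15:79915807-79932646 and Kdm6a at chrX:18162667-18279358. The counts cover annotated exons. Besides Cbx7, exons of Eed, Asxl2, Ezh2, Kdm6b and Suz12 overlap a noncoding gene on the opposite strand, by 254, 155, 92, 286 and 178 bases. For Eed this is 12.3% of its length, and for the others between 1.72% and 4.3%.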

How the data were processed

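RNA from BM of WT, DF, TF and TFD mice was made into stranded total RNA libraries after globin depletion. The authors used STAR with mm10 for alignment and featureCounts with refGene for counting, from unique alignments. Their stated filter required over 0.5 CPM in over 3 samples. Versions and the strand setting are not given in the sources used here. Raw counts were deposited. The log2 CPM values deposited beside them were recovered from the counts with edgeR (prior count 0.25) to within 5e-09. The deposited gene length in bases, of other kind, gave RPKM with TMM-scaled totals. Of 12 labelled samples, 11 had a column, and TFD replicate 3 was not analysed here.

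Applied again to the 11 columns, that filter left 12175 of 12199 genes and removed 24. Counts were tested in R 4.3.3 with edgeR 4.0.16 (TMM factors 0.924 to 1.043, quasi-likelihood F test, 1 mean per genotype, all libraries in 1 fit), although the study's methods used DESeq2. P values were adjusted over all tested genes by the Benjamini-Hochberg method, and genes were called under 0.05. Intervals are 95%. Alternatives were DESeq2 1.42.0, limma 3.58.1 voom, RLE factors, library totals, no filter, only the groups compared, an Xist term (libraries over 10000 reads), a replicate block and each library left out. EdgeR's likelihood ratio test and a fit of the libraries under 10000 Xist reads were added after seeing the data. The latter keeps replicate 1 as the only TFD library. The procedure was tested on simulated data. The members and lists were chosen with earlier results of these data known. Named were all 10 genes, from each wider list the first 5 (or fewer) genes called in a comparison with WT in order of adjusted p, and for each called gene the 3 genes correlated best with it. Figures were drawn in Python 3.11.15 with matplotlib 3.10.9.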

Additional observations from a re-analysis of the deposited data

Results flagged for a closer look

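Cbx7 was singled out because its change from WT differed between DF and TF. The change from WT was −1.24 in DF and −0.63 in TF on the log2 scale, and the difference itself was −0.611 (SE 0.16, adjusted p = 0.0414, edgeR quasi-likelihood test with Benjamini-Hochberg adjustment). It was lower in each of the 3 DF libraries than in each of the 3 TF libraries. The call was lost in 7 of 11 fits without 1 library, and the difference shrank to −0.50 (adjusted p = 0.184) without DF replicate 2 and to −0.49 (adjusted p = 0.161) without TF replicate 1. It was also lost with voom, the Xist term, the replicate block, only the groups compared and the libraries with under 10000 Xist reads (adjusted p from 0.0519 to 0.0808).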

How the results depend on the processing

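The number of the 10 genes called lower in DF than WT was 3, and it was 7 with DESeq2, 5 with RLE factors, 8 with library totals and 5 among the 8 libraries with under 10000 Xist reads, called low-Xist here (3 to 5 with 1 library left out). In TF it was 6, 7 with DESeq2, 5 among low-Xist libraries, 4 with voom, 4 with only the groups compared and 3 with the replicate block (1 to 6 with 1 library left out). Bmi1 and Asxl1 lost their TF calls with voom (adjusted p = 0.0515 and 0.0551) and with only the groups compared (0.0595 and 0.0625), and Suz12 lost it among low-Xist libraries (0.105). Among low-Xist libraries TFD keeps replicate 1 alone, so no count is given for it there. In TFD the number was 1, and 2 with DESeq2 and 3 with the Xist term (0 to 1 with 1 WT, DF or TF library left out). Between DF and TF it was 1, and 0 with only the groups compared, with voom, with the Xist term, with the replicate block and among low-Xist libraries (0 to 1 with 1 library left out). Between DF and TFD it was 0, and 1 (Cbx7) with the likelihood ratio test. Where fewer libraries entered, the fit had fewer samples, and otherwise the cause was not tested.

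For Cbx7 between DF and TF, those settings gave adjusted p values of 0.0808, 0.0526, 0.0539, 0.0526 and 0.0519, while DESeq2 gave 0.0196 and library totals 0.0222. The Cbx7 call in TFD was lost among low-Xist libraries, where replicate 1 is the only TFD library. The Cbx7 calls in DF and TF held in every setting tried.

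The replicate numbers did not pair the samples: same-numbered libraries had correlations of their deviations from −0.299 to 0.247 (median 0.029, 3 of 15 over 0.1), and 4 of 11 libraries correlated best with their own number. With the replicate block, Bmi1, Asxl1 and Kdm6b were no longer called in TF (adjusted p = 0.0566, 0.0641 and 0.0557) and Suz12 was called in DF (0.0461).

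Values near 0 changed sign. Kdm6a in TFD was 0.0053 with voom and 0.25 with the replicate block, and Cbx7 between TF and TFD was 0.015 among low-Xist libraries. With 1 library left out, Ezh1 ranged from −0.23 to 0.016 in DF and from −0.090 to 0.035 in TF, Eed from −0.26 to 0.11 in TFD, Kdm6a from −0.39 to 0.29 in TF, from −0.40 to 0.31 in TFD and from −0.54 to 0.024 between DF and TF, and Cbx7 from −0.16 to 0.030 between TF and TFD. The share of called genes that were higher in DF than WT was 55.9%, and 42.3% with library totals. Between DF and TF it was 28.1%, and 13.9% with library totals.

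With 2 or 3 libraries per genotype, shifts of 0.2 to 0.5 in log2 stood near the limit of what was called. Of the 10 genes Cbx7, at 76 to 204 reads, had the lowest counts, and the effect of depth was not tested.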
